A study of Oncorhynchus mykiss with 8 samples.

Results

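Of the 43603 non-control probes on the array, 12 carry a hemoglobin name, and 5 of these are described here: 4 probes named for the alpha chain (A_05_P480657, A_05_P249379, A_05_P441202 and A_05_P332705) and 1 for the beta chain (A_05_P395622). They were chosen by their identifiers with their values on these arrays already known, so their size ratios are a description. Members past the study's p threshold are counted below only beside the share of all probes, and no test result is drawn from these counts. The arrays carry sequences of Atlantic salmon and were hybridised with white muscle mRNA of rainbow trout of the Lyndon strain, from a Dec. and a Sept. spawning lot. In each lot, 5 females had been crossed with 1 male, a different male for each lot, and immature juveniles at the extremes of weight were selected in every family, both lots being sampled at a similar age. A pool of 5 large fish, 1 per family, was set against a pool of 5 small fish, and each such pool pair was run on 2 arrays, the dyes being swapped on the second. The swap counts as 1 replicate, so that n = 2 pool pairs per lot, with 8 arrays in all. Per the study's methods, the tissue was a plug below the dorsal fin, above the lateral line and its red muscle, with the skin removed. Fish were pooled before labelling, so the spread between single fish is not measured, and each lot rests on 1 sire.

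Hemoglobin, the oxygen carrier of blood, is a tetramer of alpha and beta chains, each of which holds a heme group. Fish red blood cells keep their nucleus and circulate with globin mRNA, so that any tissue sampled with its blood holds globin transcripts. Salmonids carry several alpha and beta globin genes that make hemoglobins of differing oxygen affinity. In bulk tissue, fewer red blood cells and less globin RNA per cell cannot be told apart.

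Values are log2(large/small), and positive values mean more signal in large fish. That reading is likely rather than stated in the labels: it was taken from the signs that the lists of the study gave to other genes. An array with the large fish in Alexa Fluor 647 is called a 647 array, and its partner, with the large fish in Alexa Fluor 555, a 555 array. Between 41909 and 43249 probes had a value on an array, and the number of arrays limits the precision. All 12 hemoglobin probes had a value on all 8 arrays. Ratios give no level, so the muscle and blood content of the pools could not be checked by level. The swapped arrays of a pool pair correlated over probes at 0.50 in Dec. pair 2, at -0.28 in Dec. pair 1, and at -0.19 and -0.12 in the Sept. pairs.

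Of the alpha probes, A_05_P480657 and A_05_P249379 were far higher in large fish in Dec. pair 2 and moderately higher in the other pool pairs. A_05_P480657 had 4.03 on the 647 array and 2.83 on the 555 array of Dec. pair 2, and 0.36 and 0.82 in Dec. pair 1. In the Sept. lot it had 1.26 on the 647 array and -0.24 on the 555 array of pair 1, and 1.83 and 0.37 in pair 2. The Dec. pair 2 arrays thus stood above the other 6, whose range crossed 0. A_05_P249379, which the array's annotation names hba, had 3.95 on the 647 array and 2.86 on the 555 array of Dec. pair 2, and 0.41 and 0.53 in Dec. pair 1. Its Sept. values were 1.35 on the 647 array and 0.16 on the 555 array of pair 1, and 1.15 and 0.33 in pair 2. All 8 of its arrays were above 0, and again both Dec. pair 2 arrays exceeded the rest. As pool pair means, the large fish of Dec. pair 2 had 10.8-fold more signal of A_05_P480657 and 10.6-fold more of A_05_P249379 than the small fish. The Dec. pair 1 means were 0.59 and 0.47 on the log2 scale.

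The other alpha probes did not share this pattern. A_05_P441202 had -0.095 on the 647 array and 0.42 on the 555 array of Dec. pair 2, and -0.26 and 0.29 in Dec. pair 1. In the Sept. lot it had 1.54 on the 647 array and 0.23 on the 555 array of pair 1, and 0.76 and 0.003 in pair 2. It was therefore higher in large fish on all 4 Sept. arrays and of mixed sign in the Dec. lot. A_05_P332705, also annotated hba, had -0.55 on the 647 array and -0.81 on the 555 array of Dec. pair 2, and 0.29 and -1.15 in Dec. pair 1. Its Sept. values were 0.15 on the 647 array and -0.69 on the 555 array of pair 1, and 0.50 and -0.031 in pair 2. It was higher in small fish in both Dec. pool pair means (-0.68 and -0.43), while the Sept. pair means lay on either side of 0 (0.23 and -0.27).

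The beta probe, A_05_P395622, ran in the direction opposite to the leading alpha probes in the Dec. lot. It had -0.78 on the 647 array and -0.84 on the 555 array of Dec. pair 2, and -0.016 and -0.70 in Dec. pair 1. In the Sept. lot it had 0.46 on the 647 array and -0.50 on the 555 array of pair 1, and 0.12 and -0.013 in pair 2. All 4 Dec. arrays were thus below 0, while each Sept. swap changed sign with the dye. In Dec. pair 2 small fish had 1.75-fold more signal than large fish, and in Dec. pair 1 they had 1.28-fold more.

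**Figure D1:**
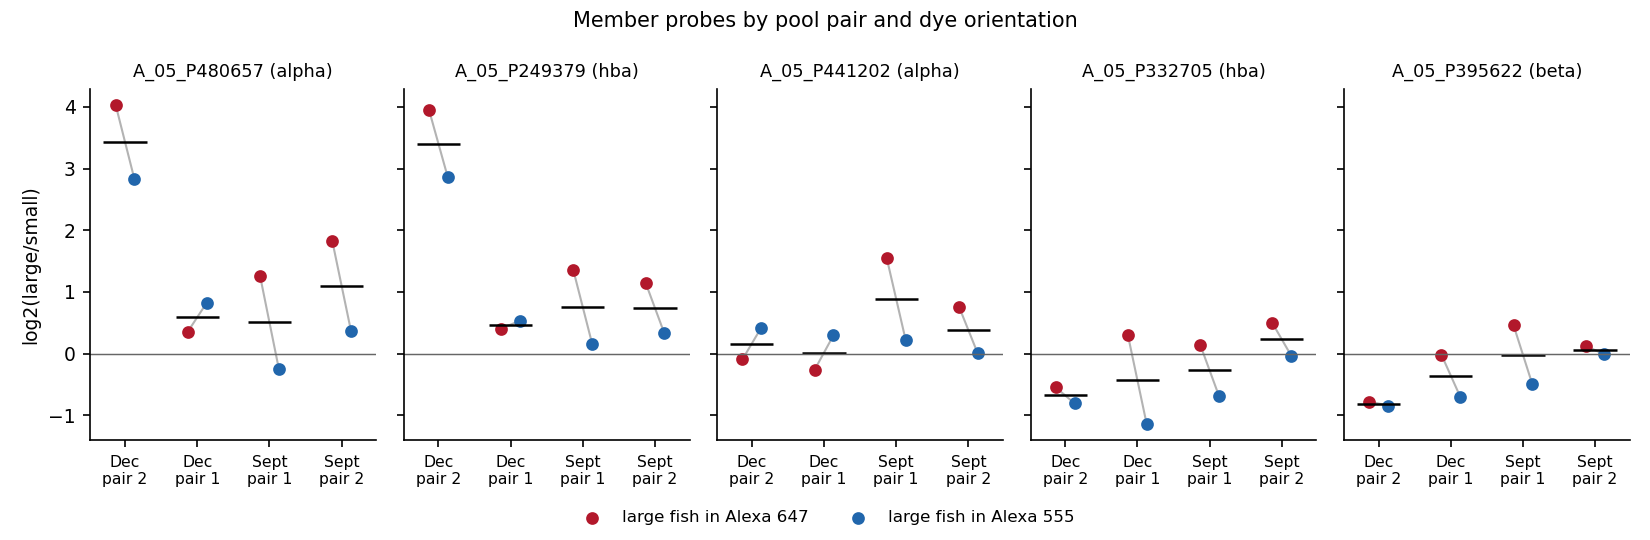
log2(large/small) of the 5 hemoglobin probes on the 8 arrays, by pool pair. Red points are 647 arrays, blue points 555 arrays, and bars are pool pair means. A_05_P480657 and A_05_P249379 reach 4.03 and 3.95 in Dec. pair 2, where A_05_P332705 and A_05_P395622 lie below 0.

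As lot means over pool pairs, A_05_P480657 stood at 2.01 ± 2.01 in the Dec. lot and 0.80 ± 0.42 in the Sept. lot, and A_05_P249379 at 1.94 ± 2.07 and 0.75 ± 0.010 (SD, n = 2 pool pairs each). The Dec. SD of both was as large as the mean, with pair 2 far above pair 1. The small Sept. SD of A_05_P249379 is that of 2 swap averages, within which the arrays differed by 1.19 and 0.82. Its fitted Sept. mean had an SE of 0.71, from the spread that both lots share. A_05_P441202 stood at 0.09 ± 0.10 in the Dec. lot and 0.63 ± 0.36 in the Sept. lot, A_05_P332705 at -0.55 ± 0.18 and -0.019 ± 0.36, and A_05_P395622 at -0.58 ± 0.32 and 0.019 ± 0.052. Of these, the Sept. means of A_05_P332705 and A_05_P395622 and the Dec. mean of A_05_P441202 were smaller than their spread. The fitted Dec. minus Sept. difference was 1.19 ± 1.00 for A_05_P249379 and of like size for A_05_P480657, -0.55 ± 0.21 for A_05_P441202, -0.53 ± 0.22 for A_05_P332705 and -0.60 ± 0.19 for A_05_P395622 (SE). These differences were not of 1 sign. Those of A_05_P249379 and A_05_P480657 were near their SE and came from Dec. pair 2. Without that pair the Dec. mean of both probes, 0.53, lay below their Sept. mean of 0.77.

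The mean over the 4 alpha probes was 0.87 ± 1.00 in the Dec. lot (1.58 in pair 2, 0.16 in pair 1) and 0.54 ± 0.10 in the Sept. lot. This average joins probes that moved apart. In Dec. pair 2 it is made of 2 values above 3.40, 1 value of 0.16 and 1 of -0.68. Without Dec. pair 2, the Dec. mean of A_05_P480657 and A_05_P249379 is 0.53, close to their Sept. mean of 0.77 ± 0.20.

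Some counts over all probes give the background of these patterns. Both Dec. pair 2 arrays lay above the other 6 in 2 of the 5 members, and in 4.69% of the 38488 probes on all 8 arrays. With at least a 2-fold difference on each of those arrays the members' count stayed at 2 and the share over all probes was 0.902%. Both lay below the other 6 in 1 member, the beta probe, and in 3.61% of probes. All 4 Dec. arrays were above 0 for A_05_P480657 and A_05_P249379 (7.29% of 39770 probes) and below 0 for the beta probe (7.56%). All 4 Sept. arrays were above 0 for A_05_P249379 and A_05_P441202 (4.73% of 41524 probes). At the study's threshold, a p up to 0.05 and a 1.2-fold difference, limma's fit placed 2 members on the large side in the Dec. lot (6.54% of probes), 2 on the small side (7.56%), and 1, A_05_P441202, on the large side in the Sept. lot (1.16%). The members had been chosen on these same contrasts, so the counts are given with no reading.

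In Dec. pair 2, A_05_P480657 ranked 41 and A_05_P249379 ranked 42 from the top of 38488 probes. A_05_P441202 ranked 7121, A_05_P332705 ranked 36860 and A_05_P395622 ranked 37526. A_05_P332705 (-0.68) and A_05_P395622 (-0.81) thus lay on the side of the small fish, 95.8% and 97.5% of the way down the ranking. Over all probes that pool pair ran from -3.25 to 4.88.

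The 7 other hemoglobin probes, of both chain names, were also higher in large fish in Dec. pair 2, and 6 of them ran close to A_05_P249379 over all arrays. They are A_05_P491417, A_05_P449312 and A_05_P249524 (alpha), and A_05_P453042, A_05_P365862, A_05_P463622 and A_05_P488772 (beta). In Dec. pair 2 their pair means ran from 1.48 to 3.38 with a median of 3.20, in Dec. pair 1 from -0.36 to 0.36 with a median of 0.06, in Sept. pair 1 from -0.08 to 0.78 and in Sept. pair 2 from 0.09 to 0.92. In each of the 7, both Dec. pair 2 arrays lay above the other 6 arrays. The beta chain probes among them had 3.20, 3.11, 2.97 and 1.48 in Dec. pair 2, against -0.81 for the member A_05_P395622, so the direction of that probe was not shared by the other probes of its chain. Over the 7 probes, the mean was 1.52 ± 2.02 in the Dec. lot and 0.60 ± 0.11 in the Sept. lot (SD, n = 2 pool pairs each).

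**Figure D2:**
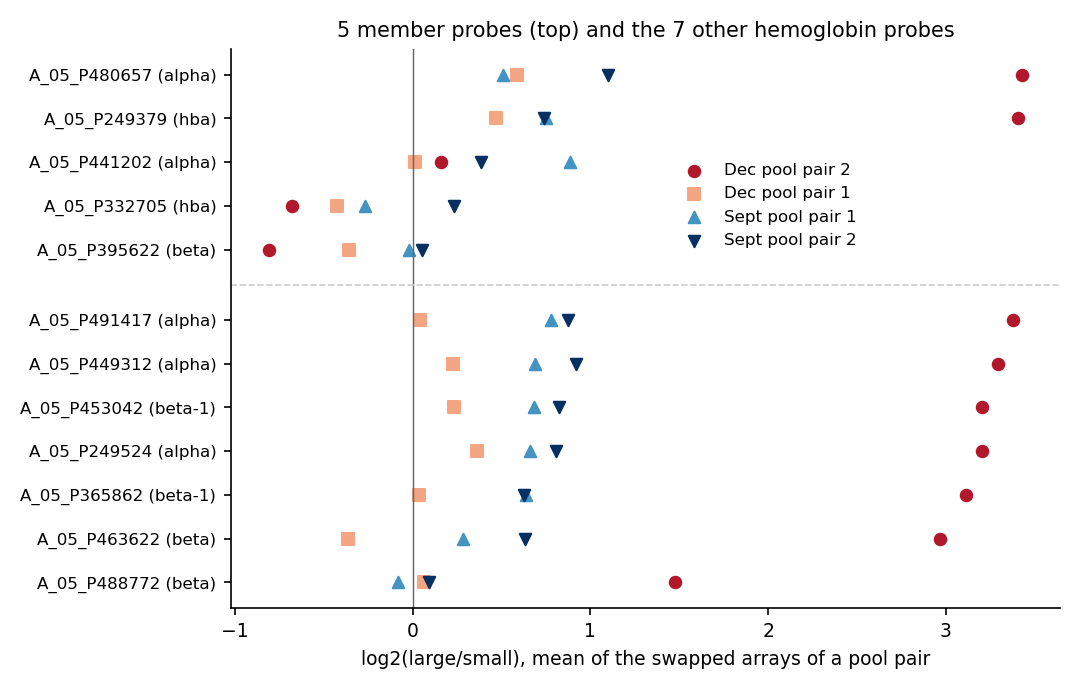
Pool pair means of log2(large/small) for the 5 members (top) and the 7 other hemoglobin probes (bottom), with the chain each is named for. In Dec. pair 2 (red circles), 9 of the 12 probes lie between 1.48 and 3.43, and A_05_P441202, A_05_P332705 and A_05_P395622 between -0.81 and 0.16.

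The study had chosen 5 of the 7 as higher in the muscle of large Sept. fish, so their Sept. direction is not independent evidence. Among the members, only A_05_P395622 was in the study's muscle lists, as higher in small Dec. fish. The Dec. direction of that probe is likewise not independent evidence. A_05_P463622 and A_05_P488772 were named only from the study's liver lists. In liver, both were listed as higher in small Dec. fish, as was the member A_05_P480657, opposite to their Dec. means in muscle. A_05_P249524, A_05_P449312, A_05_P453042 and A_05_P491417 were listed in liver as higher in small Dec. fish and in large Sept. fish. The member A_05_P441202 was listed there as higher in large Sept. fish only. In the muscle of the Dec. lot A_05_P463622 had 1.30 ± 0.81 (limma, adjusted p = 0.546) and A_05_P488772 had 0.77 ± 0.35 (limma, adjusted p = 0.414; SE). In the Sept. lot they had 0.46 ± 0.81 and 0.0046 ± 0.35 (limma, adjusted p = 0.9996 for each), so neither lot passed for these probes, nor did the Dec. minus Sept. difference (limma, adjusted p = 0.861 and 0.708). At an adjusted p under 0.05, the number of probes called by limma was 0 of 39770 in the Dec. lot, 0 of 41524 in the Sept. lot and 0 of 38488 for the difference. An unadjusted p under 0.05 was found for 6048, 1488 and 3483 probes in these comparisons, and the methods' t-test also gave 0 adjusted calls in each lot.

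Over all 8 arrays, Dec. pair 2 included, the members fell into a pair that ran with most of the other hemoglobins, a pair that ran together apart from them, and a single probe. The root-mean-square difference over the 8 arrays was 0.30 between A_05_P249379 and A_05_P480657 (r = 0.976 over 8 arrays) and 0.28 between A_05_P332705 and A_05_P395622 (r = 0.863). Between these pairs it ran from 2.21 to 2.31. A_05_P441202 differed by 0.81 to 1.77 from each of the others. A_05_P249379 differed by 0.18 to 0.69 from 6 of the other 7 hemoglobin probes and by 1.23 from A_05_P488772, whose Dec. pair 2 value was smaller. A_05_P332705 differed by 1.23 to 2.17 and A_05_P395622 by 1.22 to 2.22 from all 7. These correlations are descriptions over arrays that share fish and pools. Without Dec. pair 2, r over 6 arrays was 0.901 and 0.873 for the same 2 pairs, and 0.882 between A_05_P441202 and A_05_P249379, which had been -0.002 over all 8. A_05_P395622 then had r of 0.52 to 0.82 with 6 of the other 7 hemoglobin probes and -0.43 with A_05_P488772. For A_05_P332705 these were 0.23 to 0.82 and -0.37. Over all 8 arrays, r with the 7 had been -0.72 to -0.42 and -0.48 to -0.11. In r, the separation of these 2 members from most other hemoglobins thus rested on Dec. pair 2. These 6 arrays are dye swaps, so r over them also takes in the difference between the arrays of a swap. For A_05_P395622 the 647 array exceeded the 555 array by 0.96 in Sept. pair 1, 0.14 in Sept. pair 2 and 0.68 in Dec. pair 1. The part of the dye in these r values was not tested.

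A named chain did not separate these profiles, and neither did the gene symbol. A_05_P249379 and A_05_P491417 are annotated hba through the same reference transcript and had pair means of 3.40 and 3.38 in Dec. pair 2. A_05_P332705 is annotated hba through a different transcript sequence and had -0.68. A_05_P249524, named alpha, and A_05_P453042, named beta-1, are assigned to 1 transcript and had 3.20 each, so that the chain given by a name is not certain for them. In RefSeq's rainbow trout gene table (assembly USDA_OmykA_1.1), 6 genes had a symbol or synonym beginning with hba or hbb. They are hbb1 beside hba1 with hba4 close by, LOC100136291 (hbb4) beside LOC100136296 (HBA4), and zgc:163057 (hbad) elsewhere. Globin genes filed under other names were not counted. None of the transcripts assigned to the hemoglobin probes matched that table, so which trout gene a probe reads, and whether 2 probes read the same one, is not settled here.

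The dye carried by the large fish gave a measure on which the choice of the members did not rest, although values by dye were already known for a wider list of red blood cell probes. In both Sept. pool pairs, all 5 members read higher for large fish on the 647 array than on the 555 array, by 0.83 to 1.51 in pair 1 and by 0.14 to 1.46 in pair 2. This order in both Sept. pairs was found in 34.5% of all probes and in 5 of the other 7 hemoglobin probes. It held in all 4 pool pairs for A_05_P332705 and A_05_P395622 (11.9% of all probes). In the Dec. lot the members differed: 4 of 5 read higher on the 647 array in pair 2 (52.1% of all probes), and 2 of 5 in pair 1 (53.2%). The mean over the 4 alpha probes in the Sept. lot was 1.07 on the 647 arrays and 0.015 on the 555 arrays, so the size of the Sept. alpha difference depended on the dye.

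The dye term, the mean over 4 pool pairs of (647 array minus 555 array) / 2, was 0.46 ± 0.18 for A_05_P480657, 0.37 ± 0.12 for A_05_P249379, 0.13 ± 0.18 for A_05_P441202, 0.38 ± 0.11 for A_05_P332705 and 0.23 ± 0.10 for A_05_P395622 (SE). All 5 were positive. The share of all probes with a positive mean dye term was not counted, while in a single pool pair 52.1% to 54.3% read higher on the 647 array. At limma's unadjusted p up to 0.05 and at least 1.2-fold, the dye term was positive for 656 of 38488 probes and negative for 1658. Their unadjusted p ran from 0.0141 to 0.517, and limma's adjusted p over 38488 probes ran from 0.378 to 0.802, so none passed. Over all probes limma's adjusted p was under 0.05 for 0% in the direction of the 647 arrays and for 0 probes in the other, while 3625 had an unadjusted p under 0.05.

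**Figure D3:**
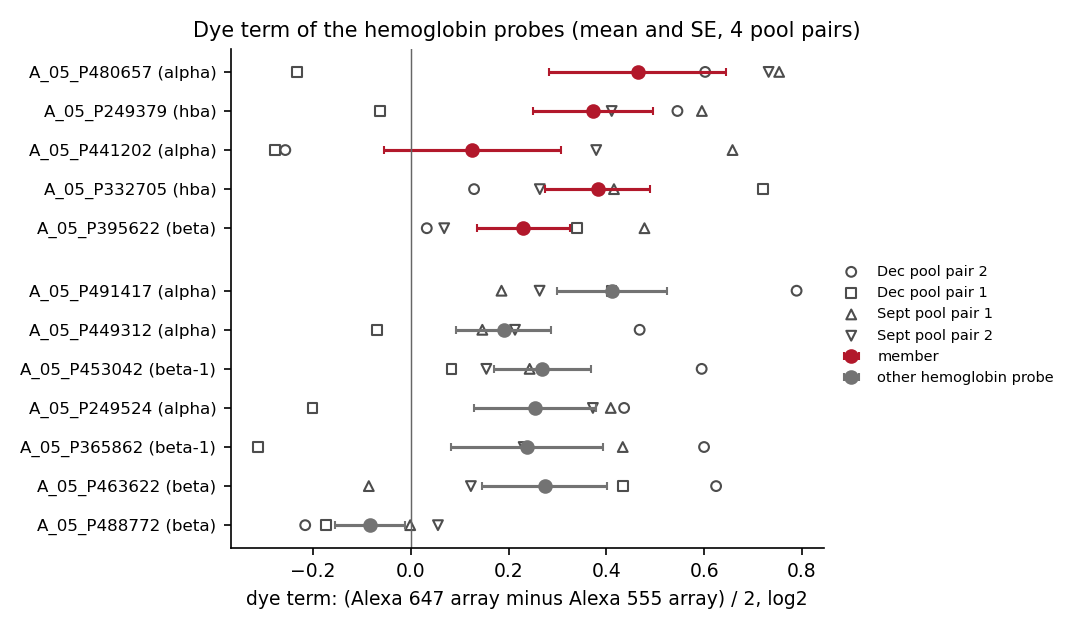
Dye term of the 12 hemoglobin probes in log2 units: filled points are limma's mean with its SE over 4 pool pairs (members in red), open symbols the single pool pairs. The means run from 0.13 to 0.46, apart from A_05_P488772 at -0.08.

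Other probes, picked by name for red blood cells and heme handling, had a lower median in Dec. pair 2 than the 12 hemoglobin probes. Of these 12, 9 lay above that median and the members A_05_P441202, A_05_P332705 and A_05_P395622 below it. Whether the genes picked by name are specific to red blood cells was not checked. Of the 9 probes picked, 8 had a value on all arrays, and 5 of these had been chosen by the study on these arrays. Their median was 0.93 in Dec. pair 2, with 7 of 8 above 0, and 0.21 in Dec. pair 1, 0.07 in Sept. pair 1 and -0.04 in Sept. pair 2, beside a median of about -0.01 over all probes in each pool pair. Band 3 anion exchange protein, the chloride and bicarbonate exchanger of the red blood cell membrane, had 0.022 on the 647 array and 2.74 on the 555 array of Dec. pair 2, so its swapped arrays did not agree. Hemopexin, a plasma protein that binds free heme, likewise had 0.035 and 3.40. A heme oxygenase probe (A_05_P275014), for the enzyme that breaks down heme, had 0.99 and 1.79, and A_05_P253919, of the same name, had 0.64 and 1.28. The third heme oxygenase probe, A_05_P413672, had 0.75 on the 555 array and no value on the 647 array. Erythrocyte membrane protein band-like 2 had 1.02 and 0.77, and ferritin high chain, an iron store, had 0.63 and 0.65. The 2 probes for 5-aminolevulinate synthesis, the first step of heme synthesis, had 0.09 (A_05_P275069) and -0.41 (A_05_P467616) as pair means. In the same pool pair 9 of the 12 hemoglobin probes lay above both, while A_05_P441202 (0.16) was close to the first and A_05_P332705 (-0.68) and A_05_P395622 (-0.81) lay below both.

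Plasma protein transcripts, made mainly in liver, had ratios as high as the leading hemoglobins in Dec. pair 2. Of 22 probes, 9 had a value on all arrays, all of them chosen by the study on these arrays as higher in large Sept. fish. Their pair means had a median of 3.26 in Dec. pair 2 (range 0.77 to 4.16, 9 of 9 above 0). On the 647 array of that pair 8 of 9 were above 0. Fibrinogen gamma chain A_05_P364872 had -1.54 there and 3.07 on the 555 array, and complement C3-like had 0.28 and 2.55. The median was 0.36 in Dec. pair 1, 0.70 in Sept. pair 1 and 1.24 in Sept. pair 2. In Dec. pair 1 the swapped arrays went opposite ways, with a median of -0.86 on the 647 array (0 of 9 above 0) and 1.66 on the 555 array (8 of 9). Complement component C9 had 4.64 on the 647 array and 3.68 on the 555 array of Dec. pair 2, and apolipoprotein B-100 had 3.25 and 2.72. The other 13 plasma protein probes had 2.74 to 4.58 on the 555 array of Dec. pair 2 and no value on the 647 array. A missing value there was found in 1.44% of all probes, in 5.95% of the probes at 1 or more on the 555 array and in 37.5% of those at 3 or more. It was found in 0 of the 12 hemoglobin probes, of which the highest had 2.86 on that 555 array, so none fell in the last class.

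Markers of other cell types were set beside these values. Leukocyte probes had a median of -0.007 in Dec. pair 2 and -0.15 in Dec. pair 1 (12 probes), with 6 of 12 above 0 in Dec. pair 2, and their values there ran from -0.88 to 3.07. The higher ones were c-c motif chemokine 13 precursor (3.07), an interleukin-8 like chemokine (1.47), c-type lysozyme (1.36), leukocyte surface antigen CD53 (1.30) and the class II histocompatibility antigen gamma chain (1.02). Slow (red) muscle probes had -2.01 in Dec. pair 2 and -1.31 in Dec. pair 1 (6 probes), with 0 of 6 above 0 in either. Among them myoglobin, the oxygen-binding protein of oxidative fibres, had -0.63 in Dec. pair 2 and -1.09 in Dec. pair 1. The slow muscle median in the Sept. lot was 0.69 in pair 1 (5 of 6 above 0) and 0.08 in pair 2 (4 of 6). Myoglobin had 0.88 and 0.34 in these Sept. pairs. Fast (white) muscle probes had a median of -0.25 in Dec. pair 2 and -0.27 in Dec. pair 1 (14 probes). In Dec. pair 2 they ran from -3.12 to 0.96, with 5 of 14 above 0. In Dec. pair 1 they ran from -2.08 to 1.63, with 4 of 14 above 0. Skin keratins and ictacalcin had 1.05 in Dec. pair 2 and 1.47 in Dec. pair 1 (4 probes). In the Sept. lot the skin median was 1.43 on the 647 array and -0.24 on the 555 array of pair 1, and 1.10 and 0.16 in pair 2, an order of the dyes that the members shared in that lot. In the Dec. lot the skin order was the other way, with 0.90 on the 647 array and 1.23 on the 555 array of pair 2, and 0.83 and 2.04 in pair 1. The study had chosen 9, 6, 13 and 4 probes of these lists on these arrays. The 6 slow muscle probes were listed as higher in small Dec. fish and the 4 skin probes as higher in large Dec. fish. The Dec. directions of these 2 lists are therefore not independent evidence. The part of blood, liver transcripts, red muscle, skin or the dye in the members' values was not tested.

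**Figure D4:**
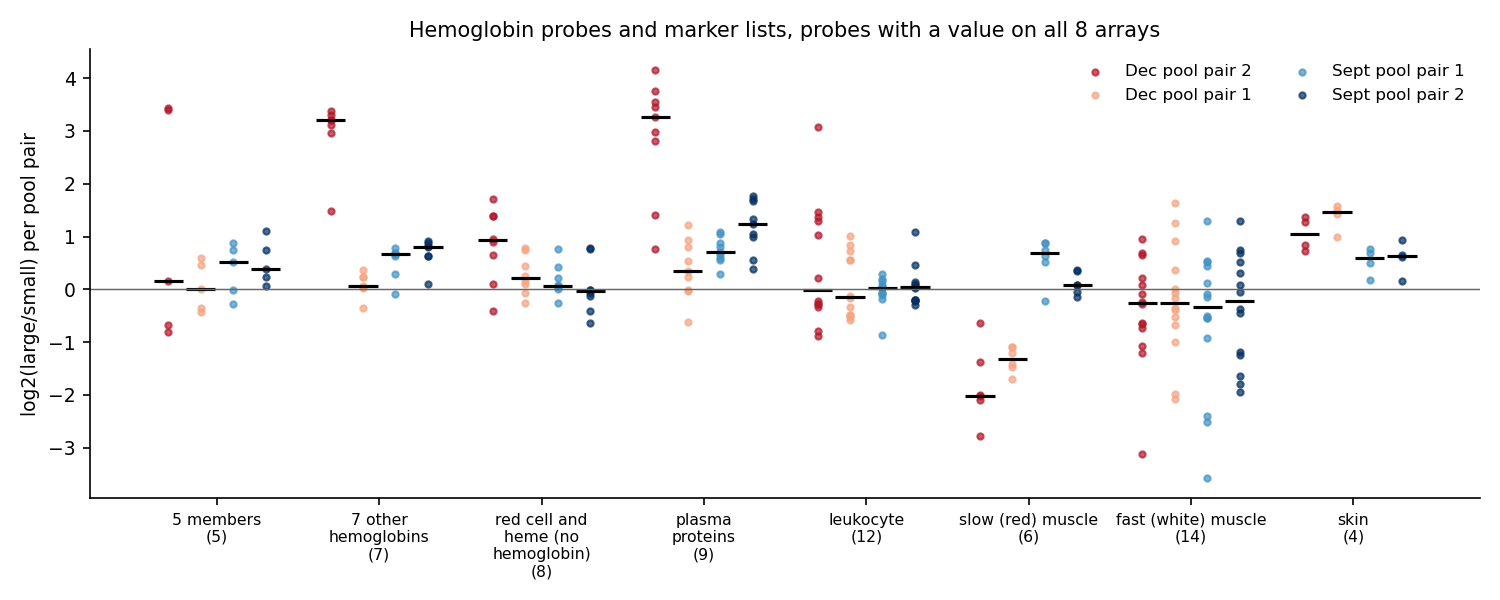
log2(large/small) per pool pair for the 5 members, the 7 other hemoglobin probes and 6 marker lists. Points are probes with a value on all 8 arrays, bars are medians, and colours are pool pairs. In Dec. pair 2 (red) the plasma proteins (median 3.26) lie at the height of the other hemoglobins (3.20), with slow muscle at -2.01.

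Named probes were ranked by their nearness to the members over the 8 arrays, with no cut-off for nearness. Nearest to the mean of the 4 alpha probes were TSC22 domain member 3, a glucocorticoid-induced transcriptional regulator (root-mean-square difference 0.31), ubiquitin-conjugating enzyme E2 D2 (0.37), type I iodothyronine deiodinase, which activates thyroid hormone (0.39), cyp1a, a cytochrome P450 that oxidises foreign compounds (0.39), and NEDD4 family-interacting protein 2 (0.43). No unnamed probe lay nearer than the first of these, and 10 lay nearer than the last. Since this mean averages unlike probes, the alpha members themselves lay farther from it, at 0.81 to 1.29. Nearest to the beta probe were deoxyribonuclease gamma precursor (0.18), zinc metalloproteinase C (0.18), A_05_P259644, named only for an open reading frame (0.19), beta-mannosidase (0.19) and dynamin 1 (0.20), with 10 to 16 unnamed probes nearer. The nearest hemoglobin to the beta probe was the alpha probe A_05_P332705, with 144 unnamed probes nearer than it.

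The members were also taken singly, which was added after the values were seen. Outside the probes named hemoglobin, A_05_P249379 ran nearest to LOC100136576 (0.28), c-c motif chemokine 13 precursor (0.47) and apolipoprotein B-100 (0.48). LOC100136576 is a symbol without a gene name, so whether that probe reads a globin is not known here. A_05_P480657 ran nearest to c-c motif chemokine 13 precursor (0.35). A_05_P332705 ran nearest to a tcb1 transposase probe (0.14) and selenium-binding protein 1 (0.16), and A_05_P441202 to psmb9a, an immunoproteasome subunit (0.33). Nearness was measured over arrays that include Dec. pair 2, so a member high there could only lie near probes high there. These neighbours therefore add nothing to the values already given.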

How the data were processed

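White muscle of rainbow trout was compared on 8 two-colour arrays, with samples grouped by the lot and pool pair of the labels. The authors reviewed the scanned spots manually, dropped data points whose channel ratio fell under a baseline, and applied lowess normalisation to each array and between arrays. Each deposited column holds log2 ratios of 1 array. Scanner intensities were not analysed here. Every column was negated to give log2(large/small), because 1469 of 1469 probes in the study's muscle lists, hemoglobins left out, then had the listed sign (1042 had it where swapped arrays were not taken as turned already). After this, array medians lay between -0.027 and 0.016. Whether spreads were scaled is unknown.

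Control features (60) were left out. Swapped arrays were averaged, and limma 3.58.1 (R 4.3.3) fitted a mean per lot over pool pairs, both lots sharing the spread, on 41524 Sept. probes, 39770 Dec. probes, and 38488 probes for Dec. minus Sept. and the dye term. Benjamini-Hochberg adjustment ran over all probes tested. The script was tested on simulated data. The p-values reflect how far pool pairs of a lot differ, each pool being an average of 5 fish.

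The members and the gene lists were chosen with earlier results of these data known. Named were the members, all other hemoglobin probes, the red blood cell and heme probes, and the 5 named probes nearest by root-mean-square difference to the alpha mean and to the beta probe. The dye-specific, single-probe and marker examples beyond this rule were chosen after their values were seen. Names came from the platform annotation (221 probes) and the study's lists, 1494 probes in all. Alternatives were centring, single dye orientations, leaving out a pool pair, the methods' t-test, fewer probes, each lot alone and a replicate block.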

Additional observations from a re-analysis of the deposited data

How the results depend on the processing

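The counts below are probes at a p up to 0.05 and at least 1.2-fold. In the Sept. lot the count was 1158 (480 higher in large fish), 2511 with the 647 arrays only, 1968 with the 555 arrays only, 369 by the methods' t-test, and 1136 to 2078 when a pool pair was left out (2078 without Sept. pair 1, of which 1273 were higher in large fish). In the Dec. lot it was 5606, 2160 with the 647 arrays only, 892 by the methods' t-test, and 4790 to 7018 when a pool pair was left out. Without Dec. pair 1, 381 probes passed the adjusted test, on the assumption that the lone Dec. pool pair varies as the Sept. pairs do. For Dec. minus Sept. it was 3483, 1353 with the 647 arrays only, 5326 with the 555 arrays only, 2037 to 5516 when a pool pair was left out (2037 without Sept. pair 2, 5516 without Dec. pair 1) and 3579 with the pool pair number as a replicate block. That number names no shared fish, and deviations of same-numbered pairs correlated at 0.07. The dye term gave 0 adjusted calls under each alternative run. The Sept. mean of the alpha probes was 1.07 on the 647 arrays and 0.015 on the 555 arrays, and that of the beta probe 0.29 and -0.25. Leaving out a Dec. pool pair gave 0.16 to 1.58 for the alpha mean and -0.81 to -0.36 for the beta probe. The same alternatives for single members and for all 12 hemoglobin probes were added after seeing the data. The mean over the 12 was 1.13 in the Dec. lot and 0.07 without Dec. pair 2. Among single members, A_05_P480657 and A_05_P249379 together had a Sept. mean of 1.40 on the 647 arrays and 0.15 on the 555 arrays, A_05_P441202 had 1.15 and 0.12, and in the Dec. lot A_05_P332705 had -0.13 and -0.98 and A_05_P441202 had -0.18 and 0.36. With each lot fitted alone, 727 Sept. probes were higher in large fish, against 480 in the joint fit. The number of arrays limits all of these values.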

Other observations

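Over all probes on the 8 arrays, 347 had both Dec. pair 2 arrays above the rest and at least 2-fold higher in large fish. Of these 95 had a name, among them 9 hemoglobin probes and 6 probes of the plasma protein list, which does not hold every plasma protein by name. Not all of the others are liver or plasma products by name. As Dec. pair 2 means, cathepsin M precursor had 4.40, cytochrome b 3.93, ribosomal protein S13 2.94 and transketolase 2.78. All examples here were picked after their values were seen. The liver and plasma products described next do not stand for the set. Liver-type fatty acid-binding protein, a lipid carrier of liver cells, had 5.64 on the 647 array and 3.89 on the 555 array of Dec. pair 2, and pair means of 0.18 in Dec. pair 1, 0.74 in Sept. pair 1 and 1.19 in Sept. pair 2. Beta-2-glycoprotein 1-like, a plasma protein, had 5.44 and 3.68 in Dec. pair 2 and 0.04 in Dec. pair 1. Alpha-2-HS-glycoprotein precursor, also a plasma protein, had 1.38 and 4.00 in Dec. pair 2 and 0.44 in Dec. pair 1. Zona pellucida sperm-binding protein 3 precursor, an egg envelope protein that fish also make in liver, had 4.19 and 4.82 in Dec. pair 2 and -1.11 in Dec. pair 1. The liver and plasma products described were drawn from the 347 probes kept for being high in Dec. pair 2. A_05_P480657 and A_05_P249379 are among the same 347, so the shared height in that pool pair follows from the selection. The Dec. pair 1 means of these liver and plasma products ran from -1.11 to 0.44, the highest being that of alpha-2-HS-glycoprotein precursor. Some of these means average swapped arrays of opposite sign. In Dec. pair 1 liver-type fatty acid-binding protein had -0.46 on the 647 array and 0.82 on the 555 array, and beta-2-glycoprotein 1-like had -0.81 and 0.89. The part of these probes in the hemoglobin values was not tested.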
